A study of Mus musculus with 26 samples.

Results

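The BCL2 family of cell survival and death was read in LSK cells of mice with a chronic myeloid leukaemia (CML) model. LSK cells are lineage-negative bone marrow cells that carry Sca-1 and c-Kit, the population that holds blood stem cells and early progenitors and, in this model, the leukaemic stem cells. The members were taken by gene symbol. They are 10 of the 24091 genes in the count table, and 10 of 10 were found and had enough reads to be tested. There are 3 anti-apoptotic genes (Bcl2, Bcl2l1 and Mcl1), 5 BH3-only genes (Bcl2l11, Bid, Bbc3, Pmaip1 and Bad) and 2 effector genes (Bax and Bak1).

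Proteins of this family decide whether the outer membrane of the mitochondrion is opened, the step that releases cytochrome c and starts caspase activation. BAX and BAK form the pores, BCL-2, BCL-XL and MCL-1 hold them in check, and the BH3-only proteins sense stress and either neutralise the guardians or activate the pore formers. In blood stem and progenitor cells MCL-1 is needed for survival, and in BCR-ABL-driven cells signalling through RAS and ERK, JAK-STAT5 and AKT is known to raise survival proteins and to hold down BIM, the product of Bcl2l11, and BAD. SPRED1 is a membrane-bound inhibitor of RAS-to-ERK signalling. Much of the control of this family acts on the proteins (phosphorylation, degradation, binding), which transcript counts do not measure.

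The study sequenced RNA of sorted bone marrow LSK cells of C57BL/6 mice as 26 bulk libraries in 5 groups that all carry the SCLtTA/BCR-ABL transgenes, so that every control is leukaemic too. The control group for the EC deletion was not analysed here. The global KO group (6 libraries) is labelled as a knockout of Spred1 in the whole animal, and the Spred1 wt group (5) is its control. The HSC KO group (5) has Spred1HSCΔ/Δ, deleted by Mx1-cre, and the HSC wt group (5) is Spred1HSCwt/wt; both were given 7 doses of 250 µg poly(I:C), 1 every 2 days, which induces the interferon-responsive Mx1 promoter in blood cells and in other interferon-responsive cells alike. The EC KO group (5) has Spred1ECΔ/Δ, a deletion labelled for endothelial cells; the Cre line and the age of the mice are not given in the sources used here. EC KO is set against Spred1 wt as a stand-in, and its own control could differ from that group. The labels speak of mice per group, and p-values measure the spread between these libraries.

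Libraries held 14816100 to 26714300 counted reads. Spred1 itself, as a check of the labels, lay between 92.4 and 148 CPM (reads of a gene scaled to a common library total) in Spred1 wt and between 22.4 and 44.5 in the global KO libraries. HSC wt libraries had 96.8 to 109 CPM of it and HSC KO libraries 28.8 to 47.4. EC KO libraries had 58.0 to 83.9, below every Spred1 wt library as well. Of the stem cell markers, Kit averaged 828 CPM, Cd34 799 and Ly6a, which encodes Sca-1, 57.9. The 12 stem cell markers together summed to between 1930 and 3313 CPM over the libraries. The T cell gene Cd3e averaged 0.212, but the 7 T and NK cell markers, Cd3e among them, summed to between 65.6 and 116 CPM. Kit, one of the sort markers, was lower in EC KO (516 ± 126 CPM) than in Spred1 wt (929.6 ± 182; SD, n = 5 each), with a log2 difference of -0.85 (SE 0.177, adjusted p = 0.00447 by edgeR). The 11 mast cell and basophil markers, all detected in every group, summed to between 1977 and 5100 CPM in EC KO and between 2682 and 16522 CPM in Spred1 wt. Their sum was 3655 to 6822 CPM for HSC wt, 1653 to 12127 for HSC KO and 1554 to 13562 for global KO. HSC KO library 1 stood apart, with 8 erythroid markers summing to 350.1 CPM, as against 132 or less elsewhere. In bulk RNA, fewer cells of a type and less RNA per cell cannot be told apart, and this holds for every level below. Xist marked 7 libraries as female, 3 of them HSC KO, 2 EC KO and 2 HSC wt, so that sex differs between the groups.

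The promoters are shown first because, by correlation over all libraries, Bcl2l11 and Bbc3 later run with Mcl1, while Bax, Bad and Bid run with Bak1. Not all of these links held in the checks given there. Each window holds the 250 bases before the RefSeq start of the gene (GRCm38.p6). Capitals mark the ETS core CCGGAA on either strand (TTCCGG when read on the other), the letters bound by ETS factors, among which are nuclear targets of ERK. Mcl1 at chr3:95658471-95658720 (+) and Bcl2l11 at chr2:128125788-128126037 (+) come first, Bak1 at chr17:27028628-27028877 (-) ran against both, and Zfp36 at chr7:28379229-28379478 (-), an immediate early gene for an mRNA-decay protein, was with Ier5 the gene closest in pattern to Mcl1.
Mcl1: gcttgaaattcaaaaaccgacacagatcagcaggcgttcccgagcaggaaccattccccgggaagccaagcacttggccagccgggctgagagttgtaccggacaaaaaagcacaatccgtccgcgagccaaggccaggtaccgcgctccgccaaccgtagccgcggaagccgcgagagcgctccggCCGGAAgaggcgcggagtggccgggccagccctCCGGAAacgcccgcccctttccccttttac
Bcl2l11: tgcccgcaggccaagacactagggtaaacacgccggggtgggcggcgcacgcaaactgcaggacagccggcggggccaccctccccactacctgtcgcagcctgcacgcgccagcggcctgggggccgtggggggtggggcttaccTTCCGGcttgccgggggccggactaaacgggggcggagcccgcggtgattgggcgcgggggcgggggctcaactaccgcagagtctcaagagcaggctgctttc
Zfp36: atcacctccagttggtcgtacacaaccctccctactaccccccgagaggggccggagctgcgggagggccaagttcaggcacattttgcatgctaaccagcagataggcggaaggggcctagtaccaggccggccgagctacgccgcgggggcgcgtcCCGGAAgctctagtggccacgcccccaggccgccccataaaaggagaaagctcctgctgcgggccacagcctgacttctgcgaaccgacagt
Bak1: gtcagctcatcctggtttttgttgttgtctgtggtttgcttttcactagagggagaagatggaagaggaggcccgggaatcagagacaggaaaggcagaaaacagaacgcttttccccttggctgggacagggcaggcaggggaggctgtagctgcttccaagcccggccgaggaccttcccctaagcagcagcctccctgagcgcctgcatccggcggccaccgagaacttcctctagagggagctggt

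The Mcl1 window holds the ETS core at 2 places, 63 to 58 and 30 to 25 bases before the start. Bcl2l11 holds it at 104 to 99 bases before its first start and not in the window of its second start, Zfp36 holds it at 92 to 87, and Bak1 holds none. RefSeq windows were found for 9 of the 10 members, 15 windows in all since some genes have several starts. The ETS core lies in 4 of these 15 (Mcl1, Bcl2l11, Bid and Bad), against 12% of 32851 windows of the same length over all genes. The match does not follow the correlations: Bid and Bad, which ran with Bak1, hold it, and Bbc3, which ran with Mcl1, holds none in its 3 windows. Bad holds it 175 to 170 bases before a later start and not in the window of its first start. A CArG box, the serum response factor motif, lies in 0 of 15 (1.47% of all windows), though Zfp36 has one at 58 to 49, sharing 1 base with a GC box. The CRE TGACGTCA lies in 0 (1.55%), the AP-1 motif TGANTCA in 0 (6.75%), a p53 half-site in 1, that of Bax (7.13%), and the GC box GGGCGG in 10 (32.7%). All motifs were searched on both strands, and a match is a run of letters, with no binding measured.

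The levels of the 10 genes spread over a wide range, and their order was similar across libraries. Per kilobase of gene length, Mcl1 was highest with a mean of 109.6 CPM per kb (SD 18.7 over 26 libraries), and Bak1 followed with 77.3 (SD 11.8). Bid had 36.2, Bax 28.5, Bcl2 21.2, Bad 12.1, Pmaip1 6.71, Bcl2l1 5.93, Bcl2l11 3.92 and Bbc3 3.42 CPM per kb, so that the highest mean was 32.1 times the lowest. Bak1 stood above Bid with no overlap of their ranges, as did Bcl2 above Bad. Mcl1 exceeded Bak1 in 22 of 26 libraries and Bax exceeded Bcl2 in 24. Pmaip1 and Bcl2l1 did not differ beyond their spread, with Pmaip1 the higher in 14 of 26, and Bcl2l11 exceeded Bbc3 in 20. Without the length correction Bcl2, a long transcript, would rank second, at 156 CPM against 155.7 for Bak1.

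**Figure D1:**
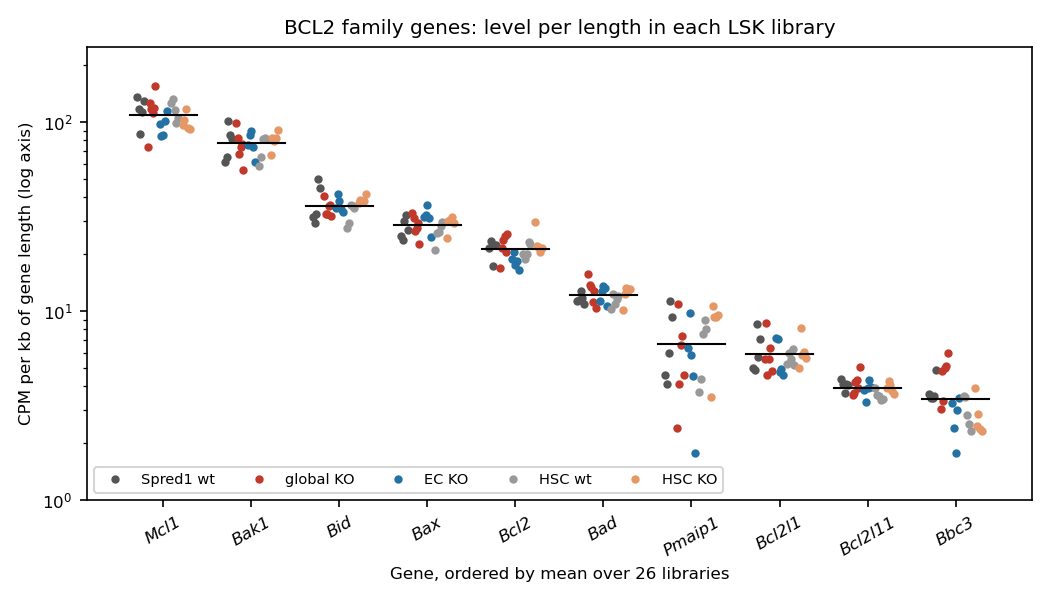
Level of each of the 10 genes per kilobase of gene length (y axis, CPM per kb, log axis) in each of 26 LSK libraries (points, coloured by group); horizontal bars are means over all libraries. Mcl1 (109.6) and Bak1 (77.3) lie on top and Bbc3 (3.42) at the bottom, and the colours of the 5 groups intermix at every gene.

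Among the guardians, Mcl1 transcripts per kb were a median of 19.7 times those of Bcl2l1 (10.2 to 32.6 over libraries) and 5.02 times those of Bcl2 (3.29 to 6.99). Bcl2 was above Bcl2l1 in every library, by a median of 3.66 times (2.05 to 5.95). Between the 2 pore formers, Bak1 was a median of 2.65 times Bax, in a narrow band of 2.38 to 3.39.

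Outside the 10, levels were mixed. Bcl2l2, the gene of the guardian BCL-W, averaged 32.5 CPM, above Bcl2l1 at 27.3. Bmf with 4.31 and Bok with 2.43 lay below Bbc3, the lowest member at 6.73. Of 9 BCL2-like and BNIP genes, 8 had enough reads to be tested. The near-identical Bcl2a1 copies, whose reads counting can split, lay at 0.765 CPM or less, Bik at 0.143, Bcl2l10 at 0.0190, and Hrk had 0 counts in 26 libraries, which allows up to 3 counts.

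None of the 10 members passed the test in any comparison. The test was edgeR's quasi-likelihood F-test, with Benjamini-Hochberg adjusted p under 0.05 over the 13379 genes tested. For global KO against Spred1 wt 0 of 10 members were called, where 0.0747% of all genes were, and 0 had an unadjusted p under 0.05 (5.53% of all genes). For HSC KO against HSC wt 0 were called (0.0224% of all genes), and 0 had an unadjusted p under 0.05 (2.16%). For EC KO against Spred1 wt 0 were called, where 7.96% of all genes were, and 2, Bcl2 and Bbc3, had an unadjusted p under 0.05, where 25.1% of all genes had. For HSC wt against Spred1 wt 0 were called (0.0299%) and 1, Bcl2l11, had an unadjusted p under 0.05 (6.35%). For the difference between the global and the HSC effect, which share no control, 0 were called (0.0149%) and 1, Bid, had an unadjusted p under 0.05 (2.14%). DESeq2 and limma voom called 0 of 10 in each of the 5 as well. The global KO and EC KO comparisons share the Spred1 wt libraries, so their values for a member are not independent.

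**Figure D2:**
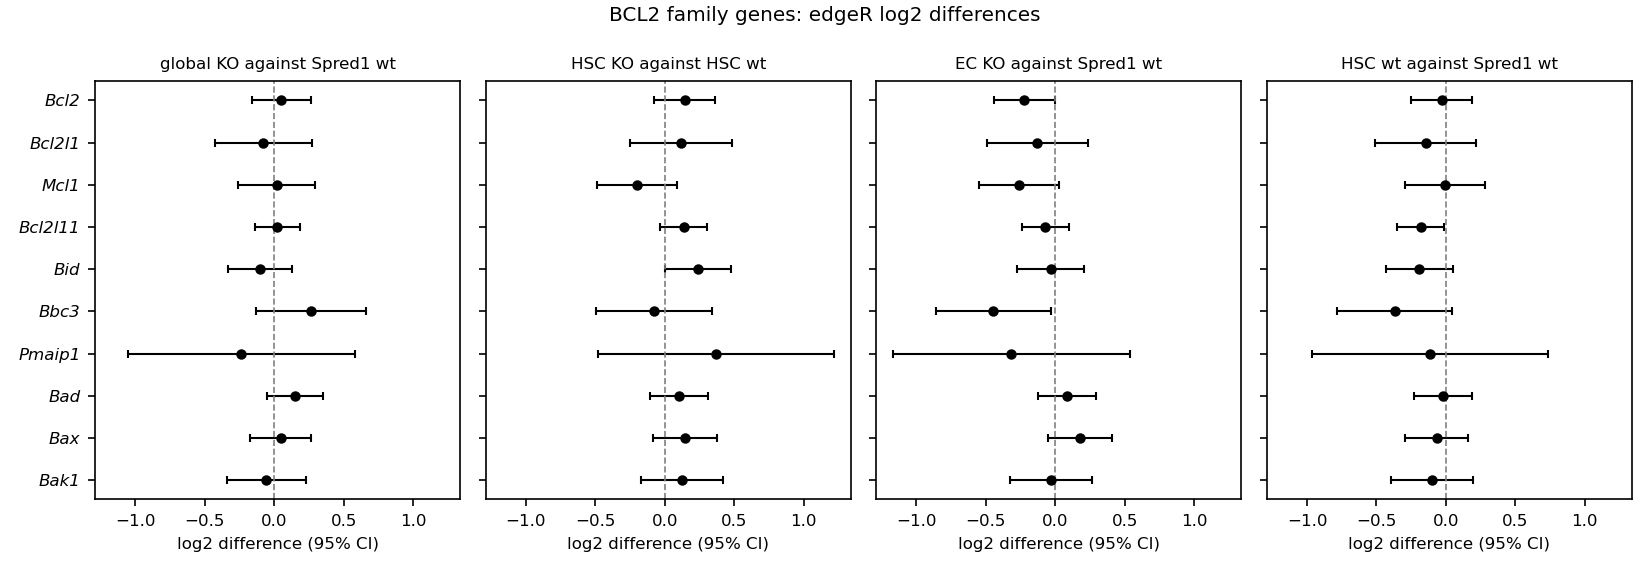
Log2 difference of each member (x axis, edgeR estimate) with its 95% confidence interval in 4 comparisons (panels); the dashed line marks no difference. The intervals of Pmaip1 are the widest in each panel, and that of Bid in HSC KO (-0.000127 to 0.48) and that of Bbc3 in EC KO (-0.86 to -0.03) and Bcl2 in EC KO (-0.44 to -0.00197) lie at the edge of the line or beside it.

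Bcl2, on chromosome 1 (mm10, 106538176 to 106714290, minus strand), encodes the founding guardian. Its CPM were 158, 172, 128, 165 and 164 in Spred1 wt and 138, 151, 128, 135 and 121 in EC KO. In global KO it ran from 123 through a median of 167 to 187. The HSC KO libraries had 217, 163, 159, 152 and 159, and the HSC wt libraries 147, 139, 147, 169.7 and 167. EC KO was the lowest by mean, and its range overlapped that of Spred1 wt. The log2 difference of EC KO against Spred1 wt was -0.22 (SE 0.107, 95% CI -0.44 to -0.00197, adjusted p = 0.195). It was 0.05 (SE 0.103) for global KO and 0.14 (SE 0.107) for HSC KO against their controls. The HSC KO value was 0.039 without HSC KO 1, the library at 217 CPM.

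Bcl2l1, on chromosome 2 (152758732 to 152831728, minus strand), encodes BCL-XL, known as a STAT5 target in BCR-ABL cells and as the guardian of erythroid cells and platelets. Its group means lay between 26.05 ± 2.24 CPM in HSC wt and 28.8 ± 7.11 in Spred1 wt (SD, n = 5 each), and only 3.59% of its variance in log2 CPM lay between groups. Single libraries went from 21.02 to 39.9 CPM, and both ends of this range were in global KO. The 5 EC KO libraries had 33.1, 32.8, 21.98, 22.7 and 21.1. The log2 differences were -0.08 (SE 0.170), 0.12 (SE 0.177) and -0.13 (SE 0.177) for global KO, HSC KO and EC KO.

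Mcl1, on chromosome 3 (95658721 to 95663178, plus strand), encodes the short-lived guardian MCL-1. It ran from 259 through 411 to 544 CPM in global KO, and was at 472, 408, 301, 395 and 448 in Spred1 wt. EC KO had 341, 295, 299, 352 and 399, HSC KO 338, 359, 407, 325 and 322, and HSC wt 443, 460.0, 402, 344 and 365. EC KO and HSC KO were lower by mean than the groups they were set against, and both overlapped them. The log2 difference was -0.26 (SE 0.141, 95% CI -0.55 to 0.03, adjusted p = 0.245) for EC KO, -0.20 (SE 0.141, CI -0.49 to 0.09, adjusted p = 0.999) for HSC KO and 0.02 (SE 0.135, CI -0.26 to 0.29) for global KO. In folds, the global KO interval runs from 0.835 to 1.23.

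**Figure D3:**
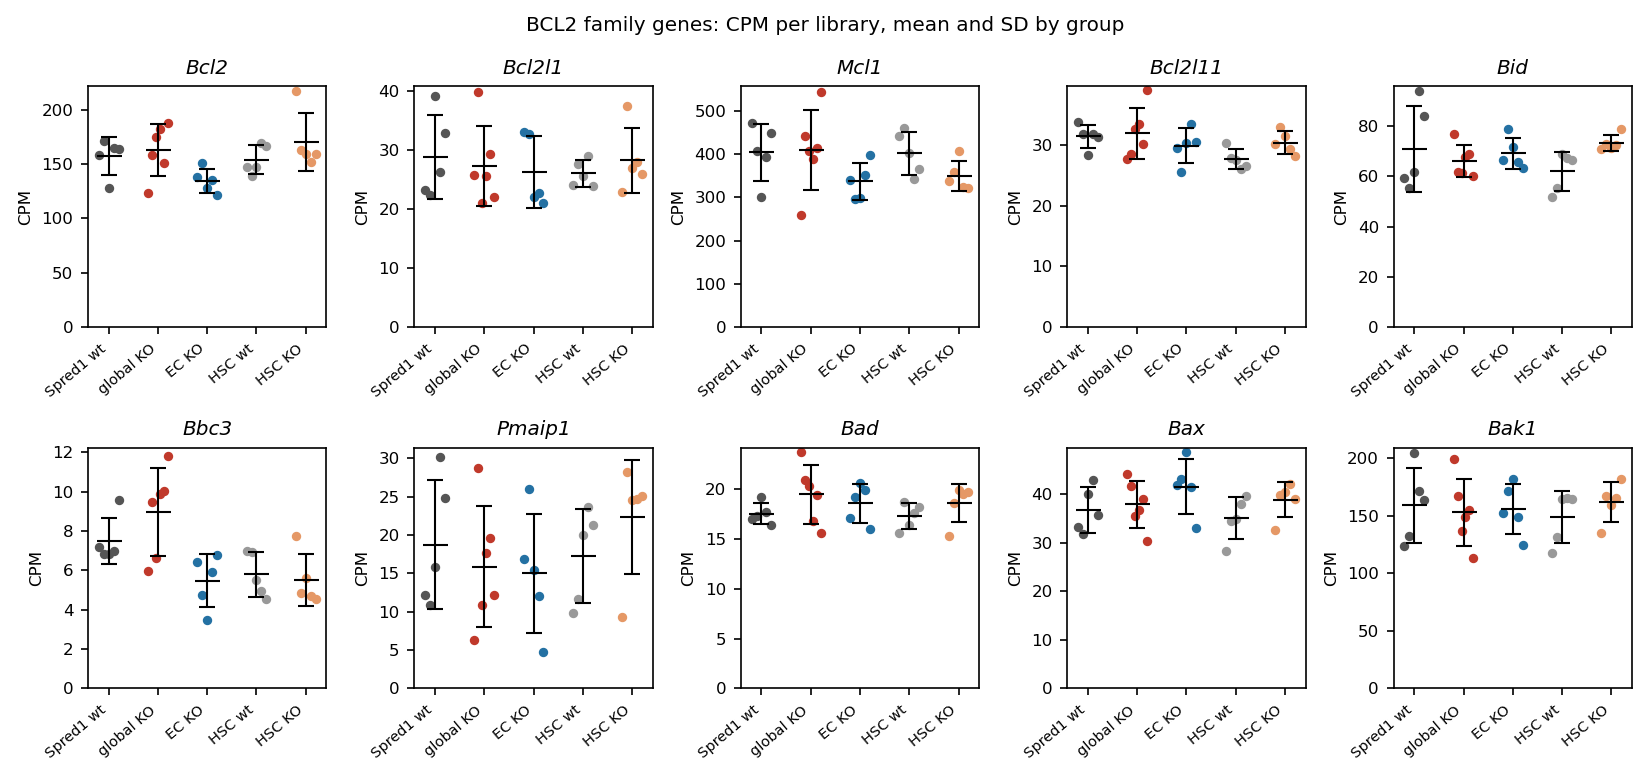
CPM of each member (y axis from 0, one panel per gene) in the 5 groups (x axis); points are libraries, long bars means and whiskers 1 SD. Bid in HSC KO (70.8 to 78.8) lies above HSC wt (51.7 to 68.9) and Bbc3 in EC KO (3.502 to 6.80) just below Spred1 wt (6.83 to 9.56), while Pmaip1 spreads widely in every group.

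Bcl2l11, the gene of BIM, lies on chromosome 2 (128126038 to 128162547, plus strand), 10.94 Mb from Spred1, while Bcl2l1 lies 35.58 Mb from it on the same chromosome. A knockout bred from another strain can keep that strain's DNA near the deleted gene, which was not tested here. Bcl2l11 was the steadiest member, with an SD of 0.137 on the log2 scale over all libraries. It had 30.5, 27.9, 27.6, 26.1 and 26.6 CPM in HSC wt and 33.8, 31.8, 28.4, 31.9 and 31.3 in Spred1 wt, and 4 of 5 HSC wt libraries were below all of Spred1 wt. The log2 difference between these 2 control groups was -0.18 (SE 0.0832, 95% CI -0.35 to -0.01, adjusted p = 0.741). For global KO it was 0.02 (SE 0.0797, CI -0.14 to 0.19), which holds the fold between 0.907 and 1.14. HSC KO against HSC wt gave 0.14 (SE 0.0832) and EC KO against Spred1 wt gave -0.07 (SE 0.083).

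Bid, on chromosome 6 (120893119 to 120916820, minus strand), encodes the BH3-only protein that caspase-8 cleaves and that ties death receptors to mitochondria. In HSC KO it had 70.8, 72.9, 71.4, 72.3 and 78.8 CPM, and in HSC wt 51.7, 55.4, 68.9, 67.4 and 66.6. All 5 HSC KO libraries lay above all 5 of HSC wt, a separation in that direction seen for 0.441% of the genes tested. The log2 difference was 0.24 (SE 0.117, 95% CI -0.000127 to 0.48) and did not pass, with an adjusted p of 0.999. Spred1 wt spread from 55.3 to 93.9 CPM, global KO from 60.0 to 76.8 and EC KO from 63.3 to 78.8. Global KO against Spred1 wt gave -0.10 (SE 0.112), and the difference of the global and HSC effects was -0.34 (SE 0.161, 95% CI -0.67 to -0.00872, adjusted p = 1).

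Bbc3, on chromosome 7 (16309583 to 16318334, plus strand), encodes PUMA, a p53 and FOXO3 target that binds every guardian. It was the member with the largest share of variance between groups, 49.8%. Its CPM were 6.44, 4.75, 3.502, 5.90 and 6.80 in EC KO and 7.18, 6.83, 6.83, 7.01 and 9.56 in Spred1 wt, without overlap, a separation downward seen for 3.26% of the genes tested. The log2 difference was -0.45 (SE 0.201, 95% CI -0.86 to -0.03, adjusted p = 0.164). With HSC wt as the control for EC KO it was -0.08 (adjusted p = 0.844), since HSC wt itself had 6.99, 6.95, 5.52, 4.97 and 4.55. Global KO ran from 5.97 through 9.69 to 11.8, and its log2 difference from Spred1 wt was 0.26 (SE 0.192, CI -0.13 to 0.66, adjusted p = 0.954). HSC KO had 7.75, 4.87, 5.59, 4.68 and 4.57, a log2 difference of -0.07 (SE 0.202) from HSC wt.

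Pmaip1, on chromosome 18, encodes NOXA, which binds MCL-1 and promotes its degradation. It varied the most of the 10, with an SD of 0.696 on the log2 scale, 88.6% of its variance lying within groups. Its CPM were 16.9, 26.01, 15.4, 12.1 and 4.70 in EC KO, 12.1, 10.9, 15.8, 30.1 and 24.8 in Spred1 wt, and 6.34 through 14.9 to 28.8 in global KO. HSC KO had 9.33, 28.2, 24.5, 24.7 and 25.1, and HSC wt 9.82, 11.6, 20.04, 23.6 and 21.2. In HSC KO 4 of 5 libraries were above all of HSC wt and library 1 was below all of them. The log2 differences were -0.24 (SE 0.395, CI -1.05 to 0.58), 0.37 (SE 0.411, CI -0.48 to 1.22) and -0.32 (SE 0.413, CI -1.17 to 0.54) for global KO, HSC KO and EC KO, so that these libraries bound the change of this gene least of the 10. Single libraries moved each of them. For global KO the value ran from -0.50 without global KO 2 to -0.0094 without Spred1 wt 4, and for HSC KO from 0.22 without HSC wt 1 to 0.57 without HSC KO 1. For EC KO it ran from -0.62 without EC KO 2 to -0.098 without Spred1 wt 4.

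Bad, on chromosome 19 (6941861 to 6951905, plus strand), encodes a BH3-only protein switched off by phosphorylation. Group means lay between 17.3 ± 1.30 CPM in HSC wt and 19.5 ± 2.93 in global KO (SD, n = 5 and 6). In global KO 4 of 6 libraries were above all of Spred1 wt and 1 was below all. The log2 difference was 0.15 (SE 0.0971, CI -0.05 to 0.35, adjusted p = 0.919), and it was 0.10 (SE 0.101) for HSC KO and 0.08 (SE 0.101) for EC KO.

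Bax, on chromosome 7 (45461695 to 45466898, minus strand), and Bak1, on chromosome 17 (27019812 to 27028626, minus strand), encode the pore formers. Bax had 41.8, 43.0, 48.5, 41.3 and 32.9 CPM in EC KO and 33.3, 31.8, 39.96, 42.9 and 35.7 in Spred1 wt. These groups overlap, and the log2 difference was 0.18 (SE 0.111, CI -0.05 to 0.41, adjusted p = 0.324). For Bax it was 0.05 (SE 0.106) in global KO and 0.15 (SE 0.111) in HSC KO. Bak1 had 152, 171, 182, 149 and 125 CPM in EC KO and 124, 132, 205, 171 and 164 in Spred1 wt, a log2 difference of -0.03 (SE 0.143). Bak1 gave -0.06 (SE 0.137) in global KO and 0.12 (SE 0.143) in HSC KO, and 3.94% of its variance lay between groups.

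Counted by sign alone, 6 of 10 members were higher in global KO (54.5% of all genes tested), 8 in HSC KO (56.9%), 2 in EC KO (53.5%) and 0 in HSC wt against Spred1 wt (47.9%). The low counts changed with the fit. In EC KO 5 of 10 were higher under limma voom, 6 with mast cell and macrophage covariates and 6 with HSC wt as the control. In HSC wt 4 were higher under limma voom, 4 with those covariates and 1 with a sex covariate. The median log2 difference of the members was 0.02, 0.13, -0.10 and -0.11 in this order, beside 0.0116, 0.0181, 0.0206 and -0.00622 over all genes tested. For the difference of the global and HSC effects 3 of 10 members were positive (47.8% of all genes), with a median of -0.11 beside -0.00728.

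Of the 11 mast cell and basophil markers, 8 were lower and 3 higher in EC KO than in Spred1 wt by sign. Their median log2 difference was -1.85, with a range from -3.74 to 1.16. Of the 11, 2 were called, both lower, where 7.96% of all genes were called in either direction. The largest fall was that of Mcpt4. The mast cell protease gene Mcpt4 fell by 3.74 on the log2 scale in EC KO (19.8 ± 25.7 against 265 ± 125 CPM, SD, n = 5 each, adjusted p = 0.0130). Its adjusted edgeR p was 0.0513 with a sex covariate and 0.0925 in a fit of these 2 groups alone. In a fit with the mast cell and the macrophage list means as covariates, an alternative to the fit above, 4 of 10 members were called in EC KO, where 24.9% of all genes were. Bcl2 was then at -0.38 (adjusted p = 0.0213), Bbc3 at -0.66 (adjusted p = 0.0333) and Bax at 0.43 (adjusted p = 0.00898). Bcl2l1 turned from -0.13 to 0.34 (adjusted p = 0.0267). With a sex covariate 0 of 10 were called. The EC deletion and the use of a stand-in control cannot be told apart here.

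Another 79 genes of the cell death pathway, in 9 lists, were read beside the members, and 72 of them were tested. In global KO, HSC KO, the comparison of the controls and the difference of effects 0 of 72 were called (0.0747%, 0.0224%, 0.0299% and 0.0149% of all genes). In this order 3, 2, 3 and 1 had an unadjusted edgeR p under 0.05 (5.53%, 2.16%, 6.35% and 2.14% of all genes). DESeq2 and limma voom called 0 of 72 in these 4 comparisons too. In EC KO 3 of 72 rose and 4 fell, where 7.96% of all genes were called, and 20 had an unadjusted p under 0.05, where 25.1% of all genes had. These EC KO counts lie near the shares over all genes. The calls changed with the libraries used. Without Spred1 wt 2, 0 rose and 3 fell, without Spred1 wt 5 it was 0 and 4, without EC KO 3 or EC KO 4 it was 1 and 3, and without EC KO 5 it was 3 and 7. With mast cell and macrophage covariates 9 rose and 6 fell, where 24.9% of all genes were called.

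Of the 4 genes that fell in EC KO, Huwe1, Usp9x and Birc6 encode large enzymes that add or remove ubiquitin. Huwe1, whose product MULE ubiquitinates MCL-1, went from 971 ± 68.7 CPM in Spred1 wt to 791 ± 64.7 in EC KO, 5 of 5 libraries below all controls, a log2 difference of -0.30 (SE 0.0603, adjusted p = 0.00344). Usp9x, whose product removes ubiquitin from MCL-1, fell by 0.27 (adjusted p = 0.00684), from 284 ± 15.5 to 236 ± 25.5 CPM. Birc6, the giant inhibitor of apoptosis, fell by 0.30 (adjusted p = 0.0128). Foxo3, the transcription factor that induces Bcl2l11 and Bbc3, fell by 0.42 (adjusted p = 0.0275), from 66.8 ± 11.4 to 49.9 ± 7.37 CPM. The genes that rose were Bnip3l, a mitophagy receptor, by 0.30 (adjusted p = 0.0195), Ppp3ca, a calcineurin subunit, by 0.25 (adjusted p = 0.0201), and Mff, a receptor for mitochondrial fission, by 0.22 (adjusted p = 0.0413).

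Of these 7, Huwe1, Usp9x and Birc6 kept an adjusted p under 0.05 with each of the 10 libraries left out in turn, the largest being 0.0171, 0.0280 and 0.0458. Ppp3ca and Bnip3l lost it without Spred1 wt 2 or 5 or EC KO 5, Ppp3ca also without EC KO 3 and Bnip3l also without EC KO 4, with largest values of 0.0776 and 0.0834. Foxo3 lost it without Spred1 wt 2 or 3 or EC KO 3 or 4 (largest 0.102), and Mff without Spred1 wt 1, 2, 3 or 5 or EC KO 3 or 4 (largest 0.166). Without EC KO 3 the difference of Mff was 0.14. In a fit of EC KO and Spred1 wt alone, 0 of the 7 passed, and Huwe1 was nearest with 0.0635. With mast cell and macrophage covariates none of the 3 that rose passed: Bnip3l was at 0.14 (adjusted p = 0.215), Ppp3ca at 0.20 (adjusted p = 0.0722) and Mff at 0.22 (adjusted p = 0.0607). With a sex covariate Foxo3 did not pass (adjusted p = 0.0758). Of 10 alternative fits, Mff passed in 5, Bnip3l, Ppp3ca and Foxo3 in 8 each, and Huwe1, Usp9x and Birc6 in 9 each.

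By role, the other lists held few calls in EC KO. The apoptosome and caspase list had 0 of 8 called, with Casp9, which starts the cascade, at -0.16 (adjusted p = 0.208). The BAX and BAK partners in the mitochondrial membrane had 1 of 7 called, Mff. By sign 7 of 7 were higher (53.5% of all genes), and 4 had an unadjusted p under 0.05, where 25.1% of all genes had. Vdac2, which holds BAK at the membrane, was at 0.25 (adjusted p = 0.160). The death receptor list had 0 of 7 called in every comparison. Its receptor gene Fas was at 1.22 ± 0.299 CPM in global KO against 1.99 ± 0.25 in Spred1 wt (SD, n = 6 and 5), with 6 of 6 libraries below all controls (0.209% of all genes in that direction), a log2 difference of -0.70 and an adjusted p of 0.371.

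By r over all 26 libraries Mcl1, Bbc3 and Bcl2l11 ran with each other and against Bak1, though only some of these pairs held in the checks below. Of the 45 pairs, 19 had a correlation of log2 CPM with an adjusted p under 0.05 (permutation test, 100000 resamples, two-sided, adjusted over 45), 13 positive and 6 negative. Bax and Bak1 ran together most closely, with r = 0.823 and rho = 0.786 (adjusted p = 0.00045 and 0.00090, n = 26). Their r was 0.884 within groups, that is with the group means taken out, and 0.751 without the 2 libraries farthest from the median. In each pair these 2 libraries were those farthest for 1 gene, the one named first in the opening list of members. With a marker list they were those farthest by the list mean. The other gene was not used in this choice, and the reverse choice was not run. Bad joined them with r = 0.748 to Bax (rho 0.721, adjusted p = 0.00045 and 0.00135) and 0.645 to Bak1, and Bid with 0.611 and 0.637, though Bid and Bad had r = 0.232 with each other (adjusted p = 0.325).

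Mcl1 ran against the pore formers. With Bak1 its r was -0.74 and rho -0.714 (adjusted permutation p = 0.00045 and 0.00135), with -0.79 within groups and -0.628 without the 2 farthest libraries. With Bax it was -0.672. With Bbc3 it was 0.657 (rho 0.645, adjusted p = 0.00262 and 0.00437), with 0.671 within groups and 0.637 without the 2 farthest libraries. With Bcl2l11 r was 0.558 and rho 0.464 (adjusted permutation p = 0.0133 and 0.0436), and r was 0.71 within groups (adjusted p = 0.000643). Without global KO 1 and 6 it was 0.379 and did not pass (adjusted p = 0.144), so that the pooled call rests on those libraries. Bcl2l11 and Bbc3 had r = 0.503 (adjusted permutation p = 0.0255). They did not pass within groups (adjusted p = 0.0644) or without global KO 6 and EC KO 2, the 2 libraries farthest for Bcl2l11 (adjusted p = 0.232). Against Bak1, Bbc3 had r = -0.47 and Bcl2l11 r = -0.554, and both passed within groups. Without the 2 farthest libraries neither passed (adjusted p = 0.232 and 0.106). Bcl2l1 and Pmaip1 ran together, with r = 0.602 and rho = 0.661 (adjusted p = 0.00590 and 0.00324), 0.599 within groups and 0.642 without the 2 farthest. They were not apart from the pore formers. Pmaip1 had r = 0.498 with Bak1, 0.464 with Bax and 0.498 with Bid (adjusted permutation p = 0.0255, 0.0405 and 0.0255). Bcl2l1 had r = 0.543 with Bak1 (adjusted p = 0.017). Without the 2 farthest libraries Pmaip1 still passed with Bak1 and Bax (r = 0.721 and 0.634). Pmaip1 with Bid and Bcl2l1 with Bak1 did not (adjusted p = 0.122 and 0.0706). Bcl2 itself had 0 pairs among the 19.

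**Figure D4:**
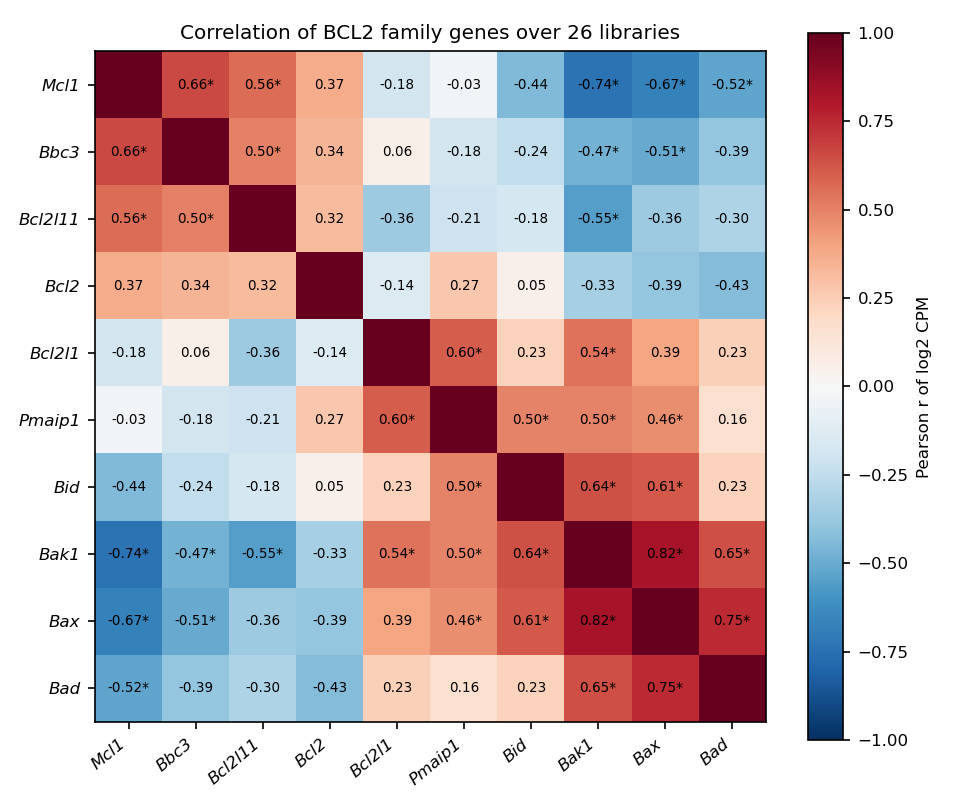
Pearson r of log2 CPM for each pair of members over 26 libraries (colour and number, scale from -1 to 1); asterisks mark an adjusted permutation p under 0.05 over 45 pairs. Mcl1, Bbc3 and Bcl2l11 pass with each other, and the 6 negative pairs that pass join one of these to Bak1, Bax or Bad. Bax, Bad, Bid, Pmaip1 and Bcl2l1 each pass with Bak1.

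Of the 19 pairs, 10 kept an adjusted p under 0.05 by rank, within groups and without the 2 farthest libraries. Within groups 25 of 45 passed, and without the 2 farthest 11. All libraries share the scaling to a common total, and cell makeup differs between them, so that a correlation here is one of library composition as well as of genes.

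Against the cell lists 16 of 60 relations passed (adjusted over 60). Bak1, Bax and Bid were high where the 12 G2 and M phase genes were high (r = 0.714, 0.671 and 0.593) and low where the 12 stem cell markers were high (r = -0.691, -0.726 and -0.728). Pmaip1 shared both directions, with r = 0.509 to the G2 and M phase genes (adjusted permutation p = 0.0315) and 0.541 within groups. That relation did not pass by rank (rho 0.432, adjusted p = 0.103) or without HSC wt 1 and 2 (r = 0.471, adjusted p = 0.0807). Mcl1 and Bbc3 went against the G2 and M phase genes, with r = -0.678 (rho -0.698, adjusted permutation p = 0.00113 and 0.00137) and r = -0.622 (rho -0.725, adjusted p = 0.00366 and 0.00048). Not every gene of these pairs followed: Bad had r = 0.396 with the G2 and M phase genes (adjusted p = 0.121) and -0.293 with the stem cell markers (adjusted p = 0.291), and Bcl2l11 -0.357 and 0.417 (adjusted p = 0.179 and 0.106). With the stem cell markers Bbc3 passed at r = 0.495 (adjusted p = 0.0385), and Mcl1 had 0.46 (adjusted p = 0.0589). For Bid the relation to the G2 and M phase genes fell to r = 0.408 without HSC wt 1 and 2 and no longer passed. That to the stem cell markers remained, at -0.658 without HSC wt 1 and global KO 6.

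Bcl2l1 and Pmaip1 followed the mast cell and basophil markers. For Bcl2l1 r was 0.774 and rho 0.843 (adjusted permutation p = 0.00040 and 0.00048), and r was 0.888 within groups. The libraries of this list fall into 4 with a low mean (EC KO 3, 4 and 5 and HSC KO 1) and 22 others, and in those 22 r was 0.811. For Pmaip1 r was 0.668 (rho 0.711, adjusted p = 0.00113 and 0.00048), and 0.608 in the 22. Pmaip1 ran against the stem cell markers, with r = -0.784 (rho -0.759, adjusted p = 0.00040 and 0.00048), -0.853 within groups and -0.788 without the 2 farthest. Both genes also ran against the macrophage and monocyte markers. For Bcl2l1 r was -0.55 and rho -0.608 (adjusted permutation p = 0.0170 and 0.0081), with -0.646 within groups and -0.588 without the 2 farthest libraries. For Pmaip1 r was -0.523 (adjusted p = 0.0267), but rho was -0.405 (adjusted p = 0.129), and r was -0.429 without global KO 1 and EC KO 3 (adjusted p = 0.121), so that it rests on those libraries. How far mast cells in the sort carry the Bcl2l1 and Pmaip1 reads was not tested.

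Against the 15 ERK output genes 1 of the 10 members passed by r over all libraries. Bbc3 had r = 0.555 (adjusted permutation p = 0.0170), with rho at 0.386 (adjusted p = 0.139), and r was 0.578 within groups (adjusted p = 0.0098). Without global KO 2 and 6 it was 0.356 and did not pass (adjusted p = 0.222), so that the pooled call rests on those libraries. Bcl2l1 had r = 0.46 (adjusted permutation p = 0.0589) and passed by rank, with rho = 0.511 (adjusted p = 0.0317), within groups, with 0.544 (adjusted p = 0.0172), and without the same 2 libraries, with 0.594 (adjusted p = 0.0141). Of the ERK output list itself, Ccnd1 rose by 1.004 on the log2 scale in global KO (87.8 ± 18.2 against 43.7 ± 10.2 CPM, SD, n = 6 and 5). It was the 1 of 14 tested genes called there (edgeR F-test, adjusted p = 0.00738). By sign 12 of the 14 were higher and 2 lower (54.5% of all genes were higher), with log2 differences from -1.14 to 1.60. The 0 of 10 BCL2 family members called there cannot be contrasted with this, since only 0.0747% of all genes were called.

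**Figure D5:**
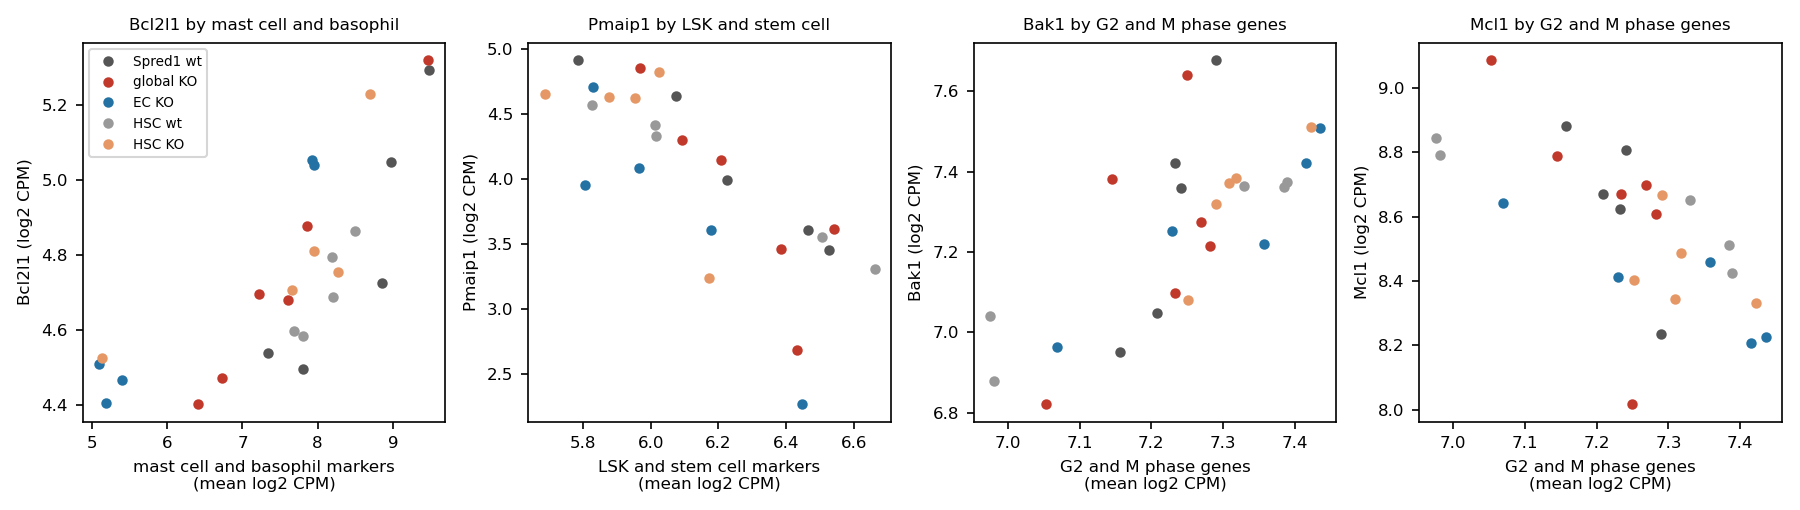
Log2 CPM of Bcl2l1, Pmaip1, Bak1 and Mcl1 (y axes) against the mean log2 CPM of a marker list (x axes) in 26 libraries, coloured by group. Bcl2l1 climbs with the mast cell list (r = 0.774), Pmaip1 descends with the stem cell list (r = -0.784), and Bak1 (r = 0.714) and Mcl1 (r = -0.678) take opposite slopes on the G2 and M phase genes.

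The genes whose levels were most like each member over the 26 libraries, by Pearson r of log2 CPM among all genes tested, differed between the members. For Mcl1 they were Ier5 (0.953) and Zfp36 (0.945), both known as immediate early genes. For Bbc3 they were Sertad2 (0.861) and Dusp5 (0.855), and for Bcl2l11 Dusp2 (0.702) and Etv3 (0.698), the lowest values of the 10 members. Dusp2 and Dusp5 encode phosphatases of ERK. For Bak1 they were Ddost (0.975), a subunit of the oligosaccharyltransferase, and Lman2 (0.952), for Bax Rrp9 and Mvb12a (0.930 each), for Bad Ndufs8 (0.779), and for Bid Kctd20 (0.832) and Mpo (0.831), the myeloperoxidase gene of granulocyte progenitors. Bcl2l1 was most like Glb1 (0.936) and Padi2 (0.912), Pmaip1 like Galnt7 (0.930) and Bms1 (0.926), and Bcl2 like Atad2b (0.848) and Akap11 (0.841).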

How the data were processed

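RNA of sorted LSK cells was sequenced as 26 libraries in 5 groups, and groups were taken from the titles and genotype labels. The authors deposited raw read counts per gene, without normalization, along with gene lengths and coordinates per the file headers. The build was mm10 and the tools were HTSeq 0.6.0, STAR 2.6.0, edgeR 3.28.1 and bcl2fastq 2.18.0.12, per the submitters' processing notes. The annotation and strand setting are not given in the sources used here, so reads of overlapping and antisense genes cannot be told apart. All 26 columns were mapped to samples.

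Here edgeR 4.0.16 (R 4.3.3) was run on the deposited counts. TMM scaling, filterByExpr (minimum count 10; 13379 of 24091 genes), 1 robust quasi-likelihood fit of 5 group means and two-sided F-tests were used, with Benjamini-Hochberg adjustment over all genes tested and a threshold of 0.05. The biological coefficient of variation was 0.205, with 21 residual degrees of freedom. CPM use TMM-scaled totals, log2 CPM a prior count of 2, and CPM per kb the deposited gene length. Floors cover counting error only. Correlations used SciPy 1.17.1 with 100000 permutations. The scripts were tested on simulated data. Promoter windows are from RefSeq.

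Alternatives were DESeq2 1.42.0, limma voom (limma 3.58.1), RLE and upper-quartile scaling, other filters, the compared groups only, covariates for sex genes or for mast cell and macrophage list means, HSC wt as control for EC KO, and each library left out. The correlations without the 4 mast-low libraries were added after seeing the data. The members and lists were chosen with earlier results of these data known. Named genes are the 10 members, Spred1, list genes that passed or were among the 3 of smallest p of their list, and the 2 genes most like each member. Kit, Cd34, Ly6a and Cd3e were named as label checks. Some genes that this rule took are not reported here.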

Additional observations from a re-analysis of the deposited data

Results flagged for a closer look

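In groups of 5 or 6 libraries, 5 of 50 sets of values (10 genes in 5 groups) held 1 library farther from the others than Dixon's 95% critical value, where chance gives about 1 in 20. HSC KO library 1 accounted for 3 of them. Bcl2 was at 217 CPM there, with the other 4 at 152 to 163. Pmaip1 was at 9.33 CPM, with the others at 24.5 to 28.2, and Bad at 15.3 CPM, with the others at 18.7 to 19.97. This is the library with 350.1 CPM of erythroid markers and a low mast cell list. Bid was at 78.8 CPM in HSC KO library 5, with the others at 70.8 to 72.9. Bbc3 was at 9.56 CPM in Spred1 wt library 5, with the others at 6.83 to 7.18.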

How the results depend on the processing

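No paired analysis was possible because replicate numbers were given in accession order and pair no mice across groups. In 460 values of the members under alternative fits, 432 kept their direction and 4 passed the threshold, these 4 in EC KO with mast cell and macrophage covariates. In 620 values with 1 library left out, 584 kept their direction and 0 passed, the smallest adjusted p being 0.0805, for Bbc3 in EC KO without EC KO 5. The cause of the changes was not tested.

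Members turned sign at these log2 values, none beyond the threshold except Bcl2l1 in EC KO. With limma voom, they were in global KO Mcl1 -0.015, in EC KO Bcl2l1 0.0102, Bid 0.0045 and Bak1 0.066. Also with limma voom, they were in HSC wt Pmaip1 0.19, Bad 0.0058, Bax 0.026 and Bak1 0.056, in the difference of effects Bcl2 0.011 and Bad -0.048. With a sex covariate, they were in HSC wt Mcl1 0.073. With mast cell and macrophage covariates, they were in global KO Bcl2l1 0.14, Mcl1 -0.029, Bcl2l11 -0.031, Pmaip1 0.14 and Bak1 0.046, in EC KO Bcl2l1 0.34, Bid 0.12, Pmaip1 0.61 and Bak1 0.29, in HSC wt Pmaip1 0.079, Bad 0.10, Bax 0.088 and Bak1 0.068. With HSC wt as control, they were in EC KO Bcl2l1 0.017, Bcl2l11 0.11, Bid 0.16 and Bak1 0.066.

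The count of all genes called was 10 in global KO, 3 in HSC KO, 1065 in EC KO, 4 between the controls and 2 for the difference. With DESeq2 it was 35 for global KO, 5 for HSC KO, 32 for HSC wt and 7 for the difference of effects. With compared groups only it was 4 for global KO, 333 for EC KO and 1 for HSC wt. With limma voom with quality weights it was 1840 for EC KO, 16 for HSC wt and 5 for the difference of effects. With sex covariate it was 636 for EC KO. With mast cell and macrophage covariates it was 23 for global KO, 5 for HSC KO, 3333 for EC KO and 10 for HSC wt. With 1 library left out it ranged from 8 to 25 for global KO, from 3 to 3 for HSC KO, from 483 to 1880 for EC KO, from 1 to 21 for HSC wt and from 2 to 7 for the difference of effects, the ends for EC KO being without EC KO 3 and EC KO 5.

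With 1 library left out, members that turned sign had these ranges. In global KO they were Bcl2 -0.014 to 0.11, Bcl2l1 -0.23 to 0.057, Mcl1 -0.081 to 0.11, Bcl2l11 -0.042 to 0.055, Bid -0.18 to 0.012, Bax -0.0079 to 0.10 and Bak1 -0.15 to 0.052. In HSC KO they were Bcl2l1 -0.0102 to 0.18. In EC KO they were Bcl2l1 -0.23 to 0.0076, Bid -0.12 to 0.071 and Bak1 -0.13 to 0.076. In HSC wt they were Bcl2 -0.10 to 0.0035, Mcl1 -0.10 to 0.051, Pmaip1 -0.26 to 0.12, Bad -0.055 to 0.021, Bax -0.12 to 0.0039 and Bak1 -0.18 to 0.0102. For the difference they were Bcl2 -0.16 to 0.013 and Bad -0.021 to 0.10. Of the pair correlations, 11 passed without the 2 farthest libraries, against 19, and the highest mean level was 56.7 times the lowest without division by length, against 32.1. Depth was enough for 10 of 10 members to be tested.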
